A study of Mus musculus with 6 samples.

Results

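The transcripts described here are those of 43 genes of DNA replication and S phase, measured by sequencing RNA from MLO-Y4 cells exposed to fluid flow or left without it. The genes were chosen by name, as G1/S cyclins and kinases, E2F factors, and genes of origin licensing, the replicative helicase, the polymerases, the sliding clamp and nucleotide synthesis. Each of the 43 names matched 1 of the 39174 rows of the deposited table, and all 43 passed the filter of a mean of at least 1 FPKM that left 11957 genes for testing. MLO-Y4 is an osteocyte-like mouse line grown from long bone. As background, it is a single clone from a mouse that carried the large T antigen of a simian virus under the osteocalcin promoter. This antigen binds the retinoblastoma proteins that hold E2F factors in check. Its level in these cultures was not examined.

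Cells were plated on collagen-coated glass 48 h before the experiment and had reached about 60% confluence when flow began. The 3 flow cultures received oscillating flow at 10 dyn/cm² for 2 h and were lysed after another 2 h in fresh medium. Another 3 cultures, the non-flow controls, went through a sham procedure alongside, and triplicates came from separate days. All cultures were kept in the same serum-containing growth medium. The comparison asks which transcript levels were different 2 h after flow had stopped.

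As background, a cell commits to S phase when D cyclins with Cdk4, and then E cyclins with Cdk2, phosphorylate the retinoblastoma proteins and free E2F factors to transcribe replication genes. Origins are licensed in G1, when the origin recognition complex, Cdc6 and Cdt1 load the MCM2-7 helicase onto DNA. In S phase, Cdc45 and the GINS complex join MCM2-7 to unwind DNA, while polymerases held by the clamp Pcna copy it from nucleotides that ribonucleotide reductase and thymidylate synthase supply. Osteocytes in bone have left the cell cycle, whereas MLO-Y4 is kept as a dividing line.

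Depth, estimated from the spacing of low FPKM values, was 17910000 to 19010000 reads in controls and 11020000, 5750000 and 19230000 reads in flow libraries 1, 2 and 3. Flow libraries 1 and 2 were thus the shallowest, and over the 6 libraries 0.156 to 0.521 FPKM corresponded to 3 reads per kb of effective transcript. The osteocyte markers Pdpn, Gja1 and Phex were detected, Dmp1 was at or under 0.0354 FPKM in every library, and Sost, Mepe and Fgf23 were listed at 0. The summed level of 3 leukocyte markers was 1.94 to 4.01 FPKM in controls and 2.37 to 3.58 FPKM in flow, with Ptprc at or under 0.0142 FPKM. The 4 endothelial markers summed to at most 0.152 FPKM in any library, with Kdr listed at 0, and the 4 epithelial markers summed to at most 0.0941 FPKM, with Cdh1 and Krt18 listed at 0. The 6 osteoblast markers summed to 193.1, 160.1 and 174.5 FPKM in controls 1, 2 and 3, and to 152.2, 116.8 and 178.1 FPKM in flow libraries 1, 2 and 3. Most of this sum was Col1a1, at 169, 140 and 151 FPKM in controls 1, 2 and 3, and 132, 105 and 159 FPKM in flow libraries 1, 2 and 3. By the sum, flow libraries 1 and 2 lay below every control and flow library 3 within their range. Single markers differed: in flow library 1, Runx2 (9.875 FPKM) lay above every control and Bglap (8.205 FPKM) within their range. In flow library 2 both lay below every control. The part of this in the members' values was not tested. In RNA from whole cultures, fewer cells in S phase and less RNA per cell cannot be told apart.

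Replication transcripts were abundant in both groups, and none of them passed the test for a difference between flow and control. Their mean level over the 6 libraries ran from 2.92 FPKM for E2f2 to 929 FPKM for Cdk4, with a median of 49.9 FPKM against 15.5 FPKM over all genes tested, and 41 of the 43 genes were at or over 10 FPKM in every library. By limma's moderated test with Benjamini-Hochberg adjustment over all 11957 genes, 0 of 43 members were called, where 0.0167% of all genes were called, and adjusted p-values of the members lay between 0.559 and 0.990. At an unadjusted p under 0.05, 0 members were higher in flow, against 3.7% of all genes, and 2 were lower, against 4.82% of all genes. These 2 were Mcm7 and E2f1. With 1 library other than flow library 3 left out there was at most 1 such gene. Of all genes, 1.51% to 1.97% were then higher and 2.48% to 3.32% lower. Without flow library 3 there were 6 higher and 11 lower, against 13.3% and 13.1% of all genes.

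The fold changes were small and lay on both sides of 0. All fold changes here are flow minus control on the log2(FPKM + 1) scale. Where 3 levels are listed for a group, they are those of libraries 1, 2 and 3 in that order, and the numbers only name the libraries. The fold change was above 0 for 15 members and below 0 for 28, or 34.88% above 0 against 48.3% of all genes tested, and the median was -0.078 against -0.011 over all genes. In size, 39 of 43 were under 0.30 and the largest was that of Ccnd3, at -0.47. The 95% interval held 0 for 41 members, and for 42 it lay wholly within 1 log2 unit of 0, the exception being Orc1. The median deviation of the members from their own means was 0.010, 0.059 and 0.018 in controls 1, 2 and 3, and -0.019, -0.080 and 0.032 in flow libraries 1, 2 and 3, with a pooled SD of 0.044 within groups. Flow library 3 therefore lay among the controls, and flow libraries 1 and 2 lay below all 3.

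**Figure D1:**
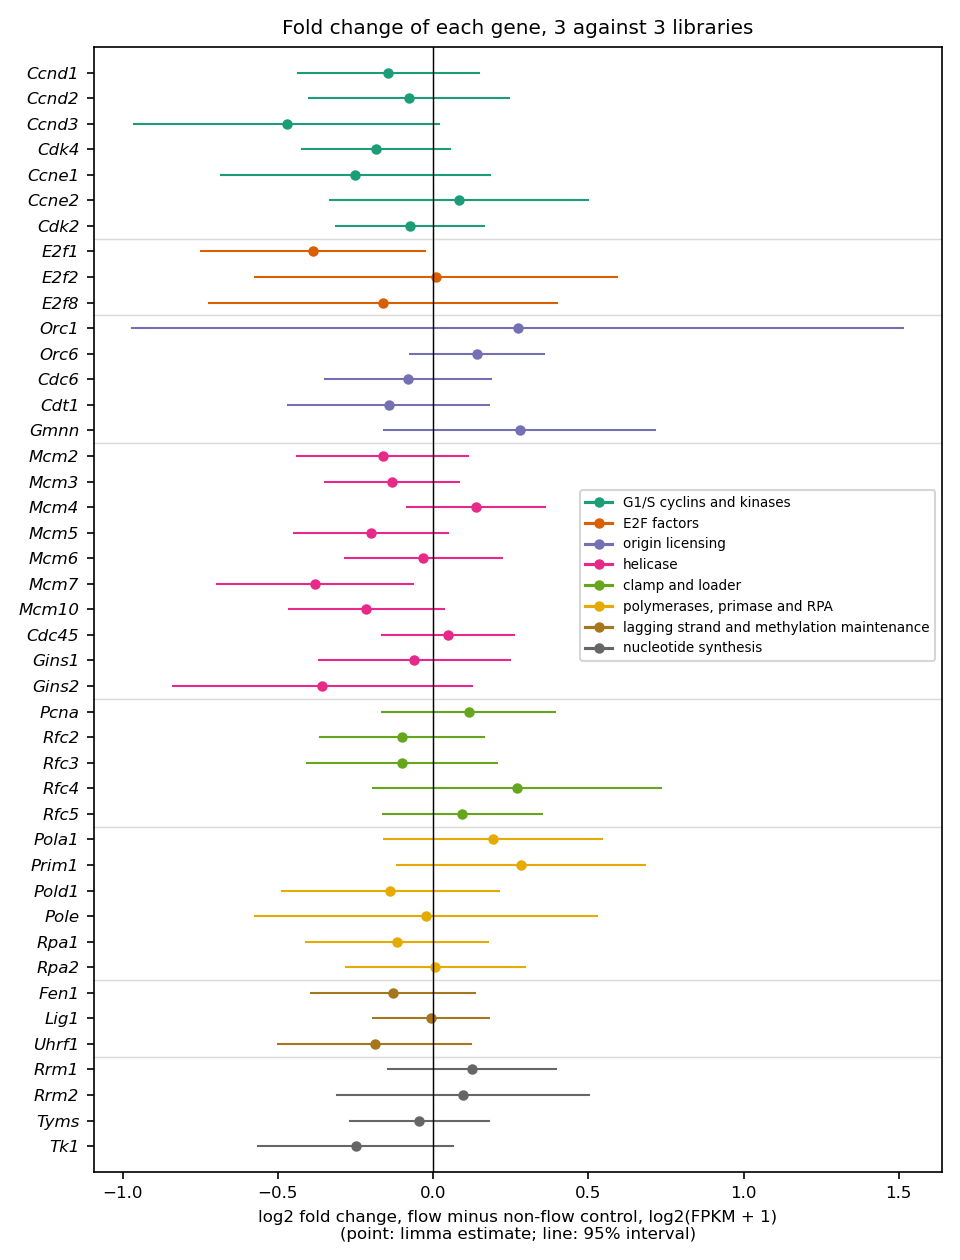
Log2 fold change of each of the 43 genes (horizontal axis, flow minus non-flow control on log2(FPKM + 1)), with genes in rows, coloured by role; points are limma estimates from 3 against 3 libraries and lines their 95% intervals. Of the 43 intervals, 41 cross 0, and those of E2f1 and Mcm7 lie just below it.

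Counted without a model, every flow value exceeded every control for 1 member, where 7.12% of all genes did so, and every flow value was under every control for 6, where 8% of all genes did so. The gene above was Orc6, and the 6 below were Cdk4, E2f1, Mcm5, Mcm7, Mcm10 and Tk1. These 7 are named for their positions, after their values were seen. The share below was 13.95% of the members. Without flow library 3 the 7 became 24, without control 1 they became 14, and without control 3 they became 11. Fewer libraries make separation easier for every gene. Without flow library 3, 20.93% of members lay above and 34.88% below, against 22.8% and 22.8% of all genes. Without control 1 these shares were 6.98% and 25.58%, against 10.92% and 11.78%. Without control 3 they were 4.65% and 20.93%, against 10.91% and 13.29%.

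Among the G1/S cyclins and their kinases, 1 of 7 fold changes was above 0 and 6 were below, with a median of -0.145 and 0 genes called. The median was -0.063 without flow library 2, and with flow library 3 as the only flow library it was 0.012, with 4 above 0. Without flow library 3 it was -0.197. It was -0.134 after removal of the GC trend and -0.147 in the other deposited table, each with 0 of 7 above 0. The D cyclins, which activate Cdk4 in early G1, kept the order Ccnd1, Ccnd2, Ccnd3 by FPKM in all 6 libraries. Ccnd1 was at 266, 231 and 215 FPKM in controls and 228, 191 and 226 FPKM in flow, with a fold change of -0.14. Ccnd2 was at 91.6, 95.3 and 105 FPKM in controls and 80.1, 89.3 and 109 FPKM in flow, a fold change of -0.078. In both genes the flow and control values overlapped, and flow library 3 lay above at least 1 control.

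Ccnd3, the third D cyclin by level, lies on chromosome 17 at 47505051 to 47599691 (mm10, plus strand). It was at 72.1, 63.7 and 90.03 FPKM in controls and 52.01, 43.2 and 68.0 FPKM in flow. Flow libraries 1 and 2 lay below every control, and flow library 3 lay inside the control range. Its fold change of -0.47 had a standard error of 0.20 and a 95% interval of -0.96 to 0.020 (limma adjusted p = 0.559). After the trend with transcript GC content was removed it was -0.26. The pseudogene Ccnd3-ps is annotated, and reads that fit the gene and its copy are uncertain.

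Cdk4, the kinase partner of the D cyclins, had the highest level of the 43 genes. It is a gene on chromosome 10 at 127063534 to 127067920 (mm10, plus strand), and 19.7% of its exon bases are shared with Tspan31 on the other strand. Cdk4 was at 995, 977 and 987 FPKM in controls and 778, 891 and 947 FPKM in flow. The 3 controls had a coefficient of variation of 0.892%, and all 3 flow values lay below them. The fold change was -0.18, with a standard error of 0.098 (limma adjusted p = 0.560). In the other table that the authors deposited, all 3 flow values of Cdk4 were also below all 3 controls. After removal of the GC trend the fold change of Cdk4 was -0.083, and its groups overlapped there and after quantile normalization.

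The E cyclins act with Cdk2 at the start of S phase. Ccne1 was at 41.1, 43.97 and 37.1 FPKM in controls and 36.7, 26.1 and 40.97 FPKM in flow, and flow library 2 alone lay far under the rest (fold change -0.25). Ccne2, the second E cyclin, was at 29.2, 30.6 and 35.7 FPKM in controls and 39.7, 26.4 and 36.3 FPKM in flow, with flow libraries 1 and 3 above the controls and flow library 2 below them (fold change 0.083). Cdk2 stayed between 22.2 and 26.1 FPKM in all 6 libraries, with a fold change of -0.075. The Ccne2 transcript has the lowest GC content of the 43, at 36.3%, and its fold change was -0.21 after the GC trend was removed.

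The 3 E2F factors differed in level by over an order of magnitude. E2f1, an activator of replication genes that is itself switched on at the G1/S border, lies on chromosome 2 at 154559407 to 154569892 (mm10, minus strand). It was at 34.2, 36.01 and 38.6 FPKM in controls and 25.8, 23.7 and 33.9 FPKM in flow. All 3 flow values lay below the lowest control, flow library 3 by less than 1 FPKM. The fold change was -0.39 with a standard error of 0.15 and a 95% interval of -0.75 to -0.027 (unadjusted p = 0.0388, limma adjusted p = 0.559).

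The size of the E2f1 difference depended on the GC correction, after which it was -0.18. E2f2, another activator, was the least abundant member, at 3.55, 3.23 and 1.95 FPKM in controls and 2.41, 3.83 and 2.52 FPKM in flow, and the groups overlapped fully (fold change 0.0089). E2f8, a repressor that acts late in S phase, was at 21.3, 17.3 and 14.9 FPKM in controls and 21.8, 14.1 and 12.5 FPKM in flow, again overlapping (fold change -0.16).

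The licensing genes did not share a direction: 3 of 5 fold changes were above 0 and 2 below, with a median of 0.141 and 0 called. The median was -0.007 without control 3, -0.025 without flow library 1, 0.068 after removal of the GC trend, 0.324 in the other deposited table and 0.051 with flow library 3 as the only flow library. Orc1, the largest subunit of the origin recognition complex, was at 11.1, 4.89 and 3.70 FPKM in controls and 15.2, 4.995 and 5.06 FPKM in flow. Control 1 and flow library 1 were both high and the other 4 libraries were between 3.70 and 5.06 FPKM, which gave a control coefficient of variation of 60.3%, the widest of the 43 genes, and an interval of -0.97 to 1.52. The fold change of 0.27 changed sign when flow library 1 was left out, to -0.20, or control 3, to -0.0074. Its standard error was 0.51, and 0.13 with libraries of adjacent title numbers taken as pairs. The labels do not settle whether these are pairs. In the other deposited table Orc1 was at 5.69, 9.83 and 7.74 FPKM in controls and 13.5, 10.9 and 12.4 FPKM in flow, with all 3 flow values above all 3 controls.

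Orc6, the smallest subunit of the same complex, was the only member with every flow value above every control. It was at 28.4, 26.3 and 28.4 FPKM in controls and 30.8, 32.2 and 28.9 FPKM in flow. The margin was less than 1 FPKM between the highest control and flow library 3, and the fold change was 0.14 with a standard error of 0.089 (limma adjusted p = 0.590). With the GC trend removed it was 0.044, and the groups overlapped.

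Cdc6 and Cdt1, which load the helicase, and geminin (Gmnn), which blocks Cdt1 once S phase has begun, gave the remaining licensing values. Cdc6 lay between 28.0 and 30.4 FPKM in flow and 28.6 and 35.2 FPKM in controls (fold change -0.081). Cdt1 was at 57.5, 65.1 and 65.1 FPKM in controls and 47.8, 58.2 and 64.7 FPKM in flow (fold change -0.14). Gmnn was at 39.2, 39.4 and 56.01 FPKM in controls and 63.3, 48.04 and 51.4 FPKM in flow, a fold change of 0.28. The Gmnn controls were split, with control 3 inside the flow range and controls 1 and 2 below it, and the Cdt1 value of flow library 1 lay under all controls while that of flow library 3 lay within them.

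Of the 10 helicase genes, 2 fold changes were above 0 and 8 below, with a median of -0.147, and 0 were called. The median was -0.104 after the GC trend was removed and -0.036 with flow library 3 as the only flow library. The 6 subunits MCM2-7 form a ring in which each is present once. Their transcripts were of similar level per length: within a library the most abundant exceeded the least abundant by 1.78 to 1.92 times in controls and by 2.05, 2.12 and 1.85 times in flow libraries 1, 2 and 3.

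Mcm7 stood lowest relative to its controls among the ring subunits. The gene lies on chromosome 5 at 138164583 to 138172422 (mm10, minus strand), hosts the microRNAs Mir25 and Mir93 on the same strand, and shares 8.7% of its exon bases with Ap4m1 and Cops6 on the other strand. Mcm7 was at 114, 103 and 109 FPKM in controls and 80.7, 72.4 and 98.5 FPKM in flow. All 3 flow values lay below all 3 controls, flow library 3 by the smallest margin. The fold change was -0.38 with a standard error of 0.13 and a 95% interval of -0.70 to -0.066, at an unadjusted p of 0.0250 and a limma adjusted p of 0.559. After the GC trend was removed it was -0.28 and the groups still did not overlap. In the other deposited table Mcm7 was at 89.8, 85.4 and 102 FPKM in controls and 72.1, 65.1 and 98.9 FPKM in flow, and there 1 flow value lay inside the control range.

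Mcm5 was at 99.4, 96.3 and 94.3 FPKM in controls and 83.98, 75.6 and 93.4 FPKM in flow. Its 3 flow values lay below the controls, flow library 3 by less than 1 FPKM (fold change -0.20, standard error 0.10). Mcm2 was at 144, 163 and 158 FPKM in controls and 123, 139 and 155 FPKM in flow (fold change -0.16), and Mcm3 at 81.8, 85.1 and 88.5 FPKM in controls and 74.2, 75.1 and 83.7 FPKM in flow (fold change -0.13). In both, flow libraries 1 and 2 lay below every control and flow library 3 lay within the control range. Mcm4 and Mcm6 differed from these. Mcm4 was at 102, 97.1 and 96.5 FPKM in controls and 114, 113 and 98.5 FPKM in flow, with flow libraries 1 and 2 above every control (fold change 0.14). Mcm6 was at 146, 151 and 143 FPKM in controls and 152, 153 and 126 FPKM in flow, with flow libraries 1 and 2 slightly above the controls and flow library 3 below them (fold change -0.032).

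**Figure D2:**
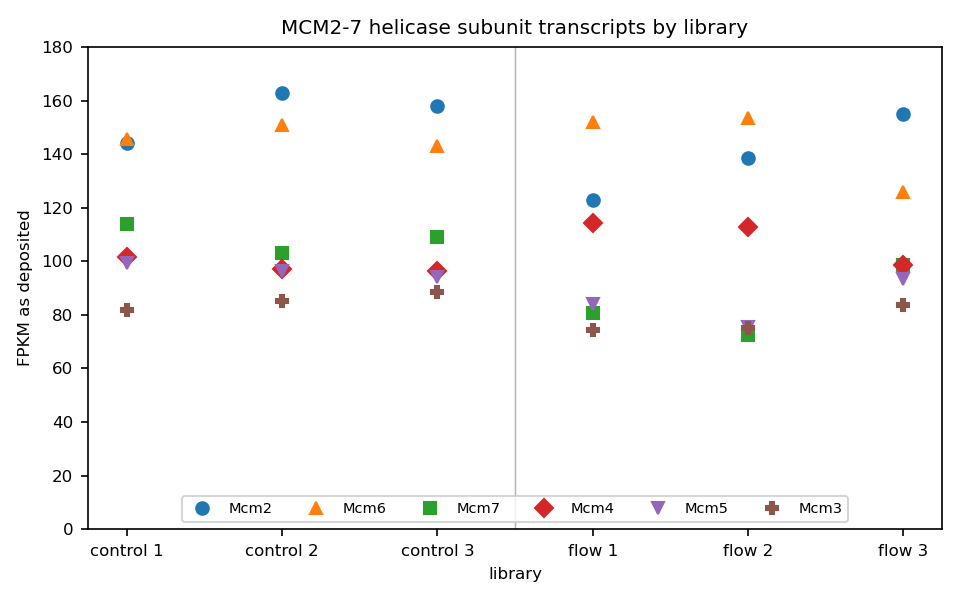
FPKM (vertical axis, from 0) of the 6 MCM2-7 subunit transcripts in each library (horizontal axis, 3 non-flow controls, then 3 flow libraries), 1 symbol per gene. Mcm7 is the third most abundant in every control and in flow library 3 (98.5 FPKM), and lies among the lowest in flow libraries 1 and 2 (80.7 and 72.4 FPKM).

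The rank order of the ring subunits was the same in controls 2 and 3 and flow library 3: Mcm2, Mcm6, Mcm7, Mcm4, Mcm5, Mcm3. In control 1 the first pair was exchanged. In flow libraries 1 and 2 Mcm4 stood above Mcm7 and Mcm5, and Mcm7 was the fifth and the last of the 6.

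The remaining helicase genes act around the ring. Mcm10, which helps activate the assembled helicase, lies on chromosome 2 at 4989714 to 5012791 (mm10, minus strand) and was at 33.6, 32.3 and 29.9 FPKM in controls and 24.8, 27.98 and 29.5 FPKM in flow. All 3 flow values lay below the controls, flow library 3 by less than 1 FPKM. The fold change was -0.22 with a standard error of 0.10 (limma adjusted p = 0.559), and it was -0.23 after removal of the GC trend, still without overlap. In the other deposited table Mcm10 was at 38.55, 30.2 and 28.8 FPKM in controls and 30.1, 25.2 and 27.2 FPKM in flow. There the groups overlapped.

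Cdc45, the helicase cofactor, was at 48.3, 55.3 and 51.5 FPKM in controls and 53.7, 52.2 and 54.4 FPKM in flow, with every flow value inside the control range (fold change 0.049). Gins1 was at 31.5, 24.2 and 28.9 FPKM in controls and 29.3, 25.1 and 26.2 FPKM in flow, also with every flow value inside the control range (fold change -0.060). Gins2 was at 103, 104 and 101 FPKM in controls and 85.6, 58.8 and 102 FPKM in flow, where flow libraries 1 and 2 lay below every control and flow library 3 within their range (fold change -0.36, standard error 0.20). Of the Gins2 exon bases, 67.3% are shared with Gse1 on the other strand, and with the use of strand not given in the sources used here, reads of the 2 genes cannot be told apart.

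A sequence feature that was not used to choose the genes is the letters TTGGCGC or TTCGCGC, a common form of the E2F binding site, on either strand of a promoter. RefSeq promoters on GRCm38.p6, the assembly of mm10, were searched from 250 bases before to 50 bases after each start. They were found for 34 of the 43 genes, in 41 windows. The letters occurred in 14 of 41 windows (13 genes), or 34.15%, against 3.89% of all 32851 promoters and 7.35% of the 10536 promoters of genes tested. The shorter letters CCAAT, the core of the NF-Y site, occurred in 25 of 41 windows, or 60.98%, against 37.41% of all promoters and 38.08% of those of genes tested, and both kinds of site overlapped in 2 windows. The E2F letters were also counted in promoters of the related genes described below. Their shares were 37.5% for other G1/S regulators, 21.74% for other fork and chromatin assembly and 21.43% for other nucleotide supply. They were 17.65% for mitosis, 11.11% for other licensing and firing and 0% for kinase inhibitors and p53 targets. CCAAT shares of these lists ran from 31.25% (other G1/S regulators) to 82.35% (mitosis). A match is a description of the letters and not of a bound site.

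The stretches below are printed because 4 of the 5 ring subunits with a promoter in the table carry the letters. All 4 had fold changes below 0, from -0.38 (Mcm7) to -0.032 (Mcm6), and none was called. Mcm2, the ring subunit with a promoter but without the letters, was also below 0, at -0.16. The fold change of Mcm6 was 0.060 without flow library 3. The stretches read 5′ to 3′ on the strand of the gene. Capitals mark the E2F letters, which run together where 2 matches on opposite strands overlap. The Mcm5 stretch is chr8:75109320-75109376 (plus strand, with the first site 164 bases before the start), and the Mcm6 stretch is chr1:128359783-128359839 (minus strand, 109 bases before the start). The Mcm3 stretch is chr1:20820263-20820284 (minus strand, 39 bases past the start), and the Mcm7 stretch is chr5:138171849-138171877 (minus strand, 17 bases past the start). Pola1, 1 of the 3 genes with the letters and a fold change above 0 (0.19, not called), is shown beside them. Its stretch is chrX:93632262-93632318 (minus strand, 138 bases before the start).
Mcm5: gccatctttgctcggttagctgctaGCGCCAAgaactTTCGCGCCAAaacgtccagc
Mcm6: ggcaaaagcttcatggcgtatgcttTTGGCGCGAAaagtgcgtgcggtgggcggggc
Mcm3: cttgggaagttTTGGCGCCAAg
Mcm7: ggtgacgacgtTTCGCGCCAAtttcggtt
Pola1: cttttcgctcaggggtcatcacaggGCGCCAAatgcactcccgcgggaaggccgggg

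Genes with the letters lay on both sides of 0, with more below than above. The 13 genes that carry them were Cdt1, E2f2, E2f8, Fen1, Lig1, Mcm3, Mcm5, Mcm6, Mcm7, Orc1, Pola1, Rfc3 and Uhrf1. Their fold changes ran from -0.38 (Mcm7) to 0.27 (Orc1), with 3 above 0, 10 below and a median of -0.129. The 21 genes with a promoter in the table but without the letters ran from -0.47 (Ccnd3) to 0.28 (Prim1), with 9 above 0, 12 below and a median of -0.075. Over all genes tested, 48.3% were above 0. These counts are given as a description, and none of the 34 genes was called. The counts depended on GC content. With the GC trend removed, Cdt1 (0.068) and Lig1 (0.099), which carry the letters, and Pold1 (0.10), which does not, moved above 0.

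The clamp and its loader had 3 of 5 fold changes above 0 and 2 below, with a median of 0.094, and 0 called. The median was 0.015 after removal of the GC trend, and omission of flow library 1, control 2 or flow library 3 gave 0.028, 0.056 or 0.167, against -0.105 with flow library 3 as the only flow library. Pcna, the ring that tethers polymerases to DNA and a usual marker of S phase cells, was at 162, 153 and 154 FPKM in controls and 184, 182 and 145 FPKM in flow. Flow libraries 1 and 2 lay above every control and flow library 3 lay below them, and the fold change was 0.11 with a 95% interval of -0.16 to 0.39. The pseudogenes Pcna-ps1 and Pcna-ps2 are annotated, and reads that fit a gene and its copy are uncertain.

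The loader subunits differed among themselves. Rfc4 was at 45.6, 42.5 and 45.6 FPKM in controls and 62.5, 63.4 and 39.7 FPKM in flow, with flow libraries 1 and 2 far above the controls and flow library 3 below all of them. Its fold change of 0.27 had an interval of -0.19 to 0.74, and without flow library 3 it was 0.49 with a limma adjusted p of 0.0695, the smallest of any member under the alternatives tried. Rfc5 was at 32.2, 29.1 and 30.95 FPKM in controls and 36.1, 33.2 and 29.6 FPKM in flow (fold change 0.094). Rfc2 lay between 40.7 and 51.8 FPKM and Rfc3 between 34.8 and 45.1 FPKM over the 6 libraries, with fold changes of -0.10 and -0.10.

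Among the polymerase, primase and RPA genes 3 of 6 fold changes were above 0 and 3 below, with a median of -0.008, and 0 were called. The median was 0.033 after removal of the GC trend and ran from -0.083 without control 3 to 0.078 without control 2. Pola1, the catalytic subunit of the polymerase that starts new strands, was at 12.98, 15.8 and 13.6 FPKM in controls and 17.1, 18.4 and 13.5 FPKM in flow (fold change 0.19). Prim1, the primase that makes its RNA primers, was at 44.8, 47.96 and 41.1 FPKM in controls and 65.2, 57.2 and 43.2 FPKM in flow (fold change 0.28, limma adjusted p = 0.573). In both genes flow libraries 1 and 2 lay above every control and flow library 3 lay within the control range.

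Pold1, of the lagging-strand polymerase, was at 48.6, 55.8 and 43.1 FPKM in controls and 38.5, 50.9 and 44.6 FPKM in flow (fold change -0.14). Pole, of the leading-strand polymerase, was at 13.8, 18.03 and 13.2 FPKM in controls and 13.1, 20.4 and 11.7 FPKM in flow (fold change -0.023). Pold1 has the highest GC content of the 43 genes, at 60.7%, and its fold change was 0.10 after removal of the GC trend. Rpa1 and Rpa2, which coat single-stranded DNA, lay between 92.5 and 122 FPKM and between 39.7 and 50.0 FPKM, with fold changes of -0.12 and 0.0069, and the groups overlapped in both genes.

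The 3 genes of lagging-strand maturation and of methylation maintenance had fold changes below 0, with a median of -0.129, and 0 were called. The median was -0.017 after removal of the GC trend, -0.213 without flow library 3, and 0.018 with flow library 3 as the only flow library. Lig1, the ligase that joins Okazaki fragments, was the steadiest member across controls. It was at 66.99, 67.1 and 67.4 FPKM in controls and 69.5, 64.7 and 66.5 FPKM in flow, a control coefficient of variation of 0.327%, and its interval of -0.19 to 0.18 around -0.0063 was among the narrowest. Fen1, the flap nuclease, was at 36.2, 40.7 and 38.3 FPKM in controls and 32.2, 33.8 and 39.4 FPKM in flow (fold change -0.13), and 84.2% of its exon bases are shared with genes on the other strand, Tmem258 among them. Uhrf1, which brings the maintenance methyltransferase to new DNA, was at 98.3, 102 and 107 FPKM in controls and 91.4, 76.4 and 104 FPKM in flow (fold change -0.19), with flow libraries 1 and 2 below every control.

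Nucleotide synthesis genes were above 0 in 2 of 4 cases and below in 2, with a median of 0.025, and 0 were called. The median was -0.040 after removal of the GC trend, and leaving out control 2, flow library 1 or flow library 3 gave -0.015, -0.014 or -0.005. Rrm1, the large subunit of ribonucleotide reductase, was at 72.8, 68.9 and 67.9 FPKM in controls and 81.8, 82.01 and 66.3 FPKM in flow (fold change 0.13). Rrm2, the small subunit that is made in S phase, was at 214, 172 and 233 FPKM in controls and 251, 182 and 229 FPKM in flow (fold change 0.095). Rrm1 showed flow libraries 1 and 2 above the controls, whereas for Rrm2 the groups overlapped.

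Tyms, which makes thymidylate, lay between 31.0 and 35.8 FPKM in all libraries (fold change -0.044). Its pseudogene Tyms-ps is annotated, and reads that fit both are uncertain. Tk1, the salvage kinase for thymidine, lies on chromosome 11 at 117815526 to 117826092 (mm10, minus strand) and was at 115, 97.4 and 97.3 FPKM in controls and 91.9, 74.1 and 94.5 FPKM in flow. All 3 flow values of Tk1 lay below the controls, flow library 2 by far the most. The fold change was -0.25 with a standard error of 0.13 (limma adjusted p = 0.560), and it was -0.097 after removal of the GC trend, when the groups overlapped.

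**Figure D3:**
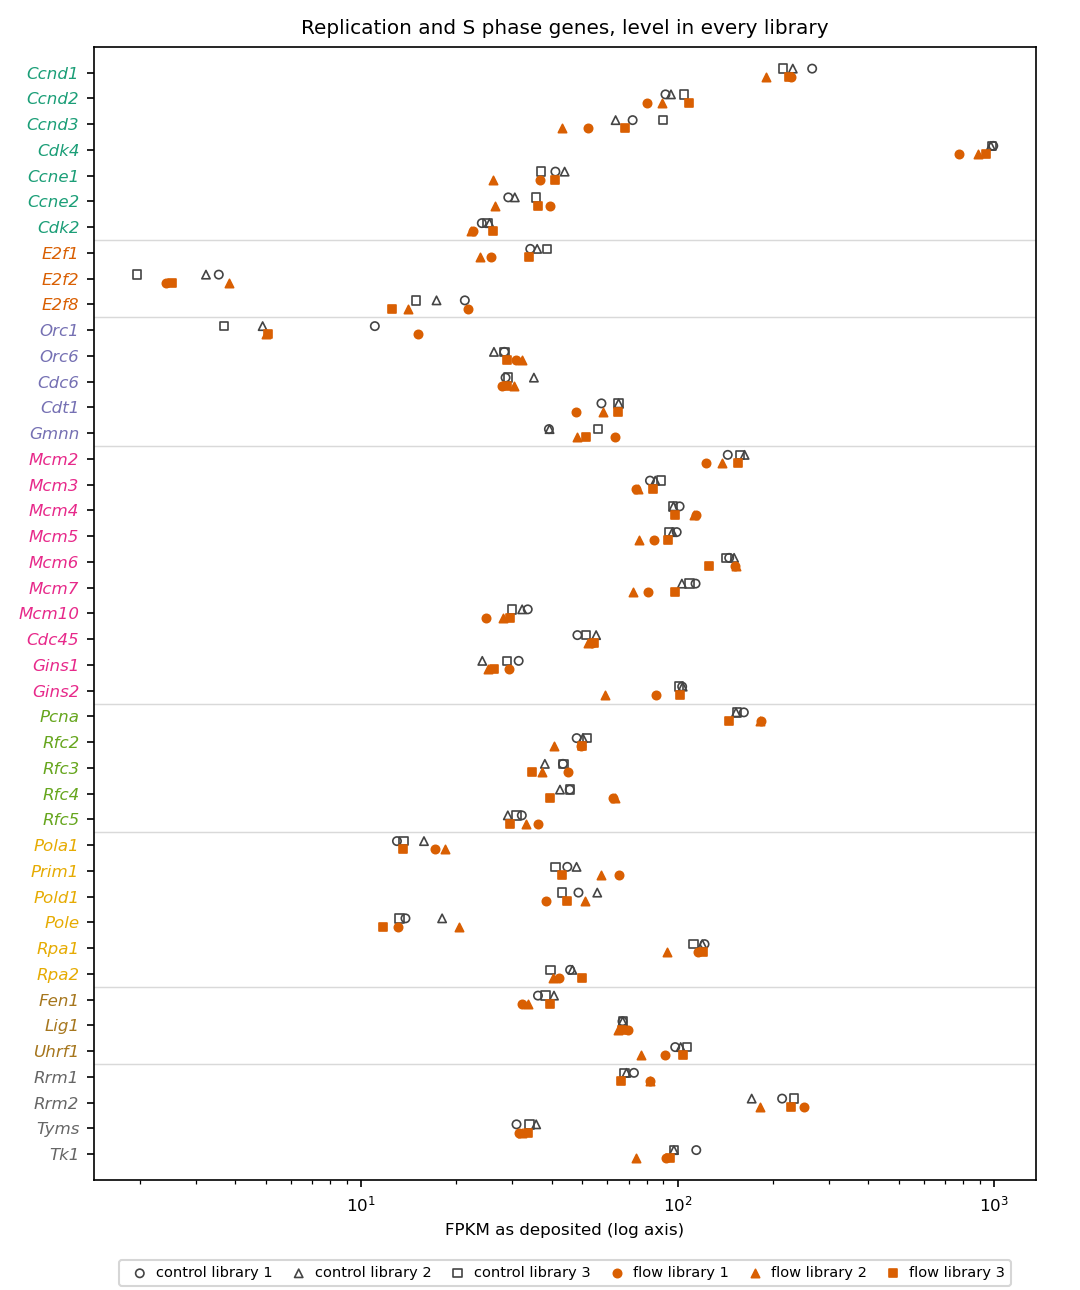
FPKM (horizontal log axis) of the 43 genes (rows, label colours and grey lines separate the roles) in each of 3 non-flow control libraries (open symbols) and 3 flow libraries (filled symbols). Cdk4 is highest at 778 to 995 FPKM and E2f2 lowest at 1.95 to 3.83 FPKM, and for most genes the square of flow library 3 lies close to the controls.

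The 3 flow libraries did not contribute equally. Flow library 3 lay within the range of the 3 controls for 24 of 43 members, flow library 1 for 8 and flow library 2 for 10, where over all genes tested the shares were 50.9%, 32.6% and 29.3%. The median distance of the members from the control mean was 0.224, 0.209 and 0.075 log2 units in flow libraries 1, 2 and 3, and over all genes 0.248, 0.285 and 0.132. Flow library 3 was the furthest of the 3 from the control mean for 5 members. Flow libraries 1 and 2 lay on the same side of the control mean for 33 of 43.

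Without flow library 3, 9 members had both remaining flow values higher than every control, against 22.8% of all genes, and 15 had both below, against 22.8% of all genes. At an unadjusted p under 0.05 there were then 6 members higher, against 13.3% of all genes, and 11 lower, against 13.1% of all genes, and still 0 were called. The 9 above were Mcm4, Mcm6, Orc6, Pcna, Pola1, Prim1, Rfc4, Rfc5 and Rrm1. The 15 below included 5 of the 7 G1/S genes (Ccnd2, Ccnd3, Ccne1, Cdk2 and Cdk4) and 6 of the 10 helicase genes (Mcm2, Mcm3, Mcm5, Mcm7, Mcm10 and Gins2).

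Transcript GC content moved with the fold changes. Across the 43 members, which share the same 6 libraries and are not independent, the correlation of the fold change with the GC content of the longest GENCODE transcript was -0.69 (Pearson, n = 43) and -0.73 (Spearman), and across 10460 protein-coding genes tested it was -0.54 and -0.61. Of the 21 members under the median GC content of 49.8%, 12 were above 0 (median 0.083), and of the 21 over it, 2 were above 0 (median -0.162). Without flow library 3 the correlation across members was -0.67, and with flow library 3 as the only flow library it was -0.14. Flow libraries 1 and 2 were also the shallowest. The part of GC content or depth in the members' fold changes was not tested.

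**Figure D4:**
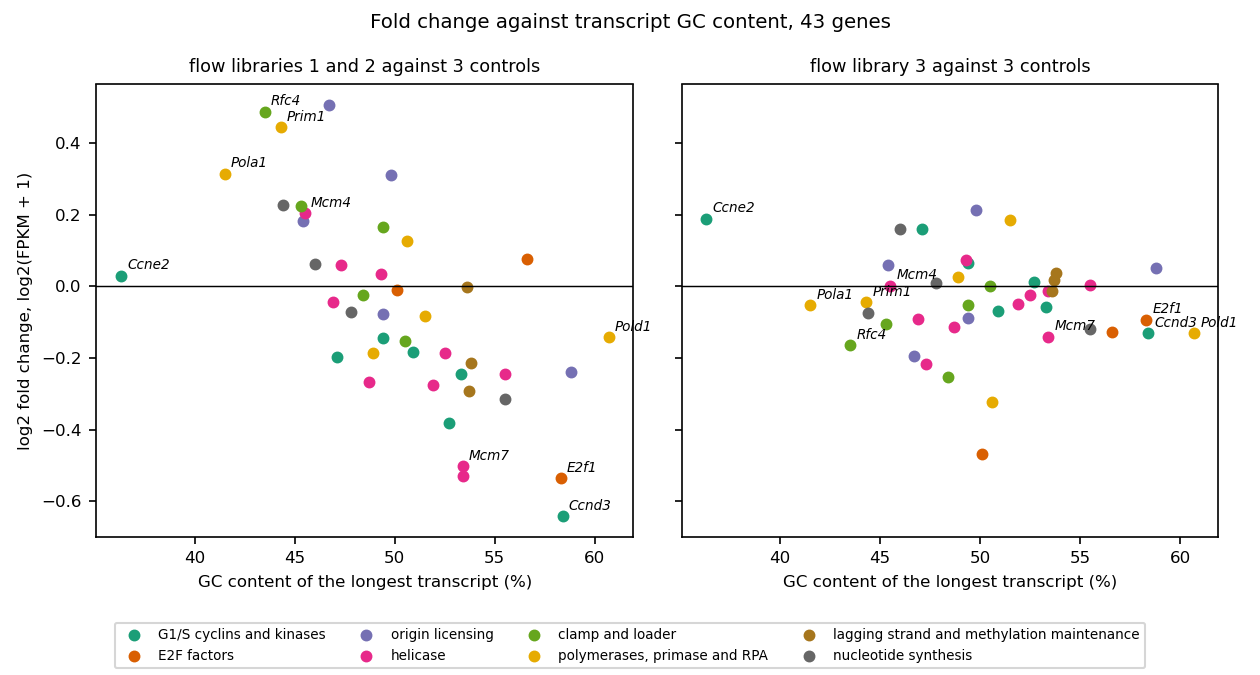
Log2 fold change (vertical axes, log2(FPKM + 1)) against GC content of the longest transcript (horizontal axes, percent) for the 43 genes, coloured by role, with flow libraries 1 and 2 against the 3 controls on the left and flow library 3 against them on the right. On the left, points slope down from Rfc4 (0.49) to Ccnd3 (-0.64); on the right the correlation is -0.14.

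With the GC trend of each library removed by a loess curve, the SD of the 43 fold changes went from 0.184 to 0.132, and 29 fold changes became smaller in size. The median was -0.076, with 18 members above 0, and 0 were called. All 3 flow values then lay below all controls for 3 members, E2f1, Mcm7 and Mcm10, against 5.66% of protein-coding genes, and above them for 0 members, against 6.76%. Largest in size then were Gmnn at 0.29, Mcm7 at -0.28 and Ccnd3 at -0.26.

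The other deposited table, which holds 41 of the 43 members, gave a median fold change of -0.092 with 15 above 0 and 26 below. In it 4 members had every flow value above every control, against 6.64% of genes, namely Gmnn, Orc1, Pola1 and Tyms. Another 3 had every flow value below, against 5.91% of genes, namely Cdk4, Pold1 and Rpa2. Cdk4 was the only gene of these that was also without overlap in the table tested.

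Genes of the same pathway outside the 43 gave no calls either. Over all genes tested, 48.3% of fold changes were above 0, and at an unadjusted p under 0.05, 3.7% were higher and 4.82% lower. The genes detailed in each list are those with its smallest unadjusted p. Of 16 other G1/S regulators, 9 fold changes were above 0, 0 passed an unadjusted p under 0.05, and the median was 0.050. Without flow library 1 the median was -0.013, and after removal of the GC trend it was 0.010. With the smallest p among them, Rbl1, a retinoblastoma family member, was at 18.3, 21.4 and 20.7 FPKM in controls and 26.4, 25.5 and 21.4 FPKM in flow (fold change 0.26), and E2f4, a repressor E2F, was at 46.3, 47.2 and 46.1 FPKM in controls and 29.8, 32.7 and 46.7 FPKM in flow (fold change -0.37). In both, flow library 3 lay within the control range. Ccna2, the cyclin of S phase and G2, was at 147, 106 and 132 FPKM in controls and 179, 143 and 136 FPKM in flow (fold change 0.25).

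Of 17 other licensing and firing genes, 13 were above 0, against 48.3% of all genes, with a median of 0.078. At an unadjusted p under 0.05, 1 was higher and 0 lower, against 3.7% and 4.82% of all genes. Leaving out flow library 3 gave a median of 0.177, and 9 were above 0 after removal of the GC trend. That gene was Orc2, another subunit of the origin recognition complex, at 42.8, 45.3 and 41.3 FPKM in controls and 53.99, 63.6 and 47.8 FPKM in flow, where every flow value lay above every control (fold change 0.34, unadjusted p = 0.0325, limma adjusted p = 0.559). Orc5, of the same complex, was at 10.1, 10.8 and 12.4 FPKM in controls and 13.95, 14.9 and 12.4 FPKM in flow (fold change 0.29). Mcm8, a helicase relative of the ring subunits, was at 6.48, 7.35 and 6.48 FPKM in controls and 9.21, 9.15 and 7.21 FPKM in flow (fold change 0.29). The flow values of Mcm8 and Orc5 overlapped the controls through flow library 3.

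Among 23 other fork and chromatin assembly genes, 13 were above 0, against 48.3% of all genes, with a median of 0.080. At an unadjusted p under 0.05, 2 were higher and 1 lower (8.7% and 4.35%), against 3.7% and 4.82% of all genes. The median was -0.002 after removal of the GC trend, with 11 above 0, -0.001 without control 3 and -0.003 with flow library 3 as the only flow library. Pold3, an accessory subunit of the lagging-strand polymerase, had the largest difference of the named pathway genes in the table tested. It was at 25.5, 36.99 and 36.8 FPKM in controls and 82.6, 84.9 and 50.8 FPKM in flow, a fold change of 1.10 with a standard error of 0.25 (unadjusted p = 0.00393, limma adjusted p = 0.559). Every flow value lay above every control, flow library 3 by the smallest margin, and the fold change was 1.07 after removal of the GC trend and 0.62 with flow library 3 as the only flow library. In the other deposited table Pold3 was at 24.7, 47.7 and 31.6 FPKM in controls and 54.1, 63.5 and 34.7 FPKM in flow, where the groups overlapped and the log2 fold change of Pold3 was 0.55.

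Timeless, of the complex that stabilises the fork, was at 34.8, 37.7 and 40.4 FPKM in controls and 28.4, 27.4 and 28.6 FPKM in flow. Its 3 flow values lay close together and below every control (fold change -0.40, standard error 0.092, unadjusted p = 0.00417, limma adjusted p = 0.559). Pole2, a subunit of the leading-strand polymerase, was at 16.1, 16.6 and 16.6 FPKM in controls and 21.8, 21.03 and 17.7 FPKM in flow (fold change 0.28), with every flow value above every control. With the GC trend removed its fold change was 0.16.

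Of 13 other nucleotide supply genes, 8 were above 0, against 48.3% of all genes, with a median of 0.050. At an unadjusted p under 0.05, 1 was higher and 0 lower, against 3.7% and 4.82% of all genes. Leaving out flow library 3 or control 2 gave a median of 0.131 or 0.1. That gene was Rrm2b, the p53-inducible small subunit of ribonucleotide reductase that supplies nucleotides outside S phase. Rrm2b was at 6.87, 8.59 and 6.16 FPKM in controls and 14.01, 17.3 and 12.7 FPKM in flow. Every flow value exceeded the highest control, flow library 3 included, and the fold change was 0.94 with a standard error of 0.17 and a 95% interval of 0.53 to 1.34 (unadjusted p = 0.00115, limma adjusted p = 0.559). By comparison, its S phase counterpart Rrm2 had an interval of -0.31 to 0.50. Cad, which starts pyrimidine synthesis, was at 24.9, 30.5 and 23.2 FPKM in controls and 17.9, 15.8 and 24.3 FPKM in flow (fold change -0.43), and Dut, which removes dUTP, was at 103, 98.7 and 100.2 FPKM in controls and 111, 119 and 109 FPKM in flow (fold change 0.17), with every flow value above every control for Dut.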

How the data were processed

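RNA libraries of 3 flow and 3 non-flow MLO-Y4 cultures were analysed. Per the labels' protocols, reads were single-end. Cufflinks 2.2.1, TopHat2 2.0.9 and CASAVA 1.8.2 are listed in the submitters' processing notes, with the build mm10, and strand use is not given in the sources used here. The authors deposited 2 tables of FPKM (fragments scaled for transcript length and library depth), with no counts. The table that names all 6 libraries was tested, and the other, in which 2 flow columns name only the group, was an alternative. Depth was read from the steps of low FPKM values, taking 200 nt off each transcript, and covers counting error only.

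Genes whose 6 libraries averaged 1 FPKM or more were tested on log2(FPKM + 1), a scale that understates the change of low genes. The test was two-sided, by lmFit and trended eBayes of limma 3.58.1 (R 4.3.3), with Benjamini-Hochberg adjustment over all genes tested and a threshold of 0.05. The p-values reflect the spread among 3 cultures a group, and 3 against 3 allow no two-sided exact permutation p under 0.1. The test was tried on simulated data. GC content, coordinates (1-based) and exon overlaps came from GENCODE M21 on mm10, and promoters from RefSeq on GRCm38.p6. GC trends were removed per library by loess (span 0.5) over protein-coding genes.

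All 43 members are named, and of each of 6 lists of related genes the 3 tested genes with the smallest unadjusted p. The members and lists were chosen with earlier results of these data known. The alternatives tried were a pseudocount of 0.1, no filter, quantile normalization, GC trend removal, a replicate block, the other table, no variance trend and leaving out each library. Added after the data were seen were a fit without flow libraries 1 and 2, and the block with GC removal.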

Additional observations from a re-analysis of the deposited data

How the results depend on the processing

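No member was called by limma under any alternative run, with a smallest adjusted p of 0.0695 (Rfc4, without flow library 3). The count of members with an unadjusted p under 0.05 was 2, both lower, in the fit reported. It was 0 higher and 1 lower with GC trends removed, against 3.34% and 3.4% of protein-coding genes. In the other deposited table it was 3 higher and 1 lower, against 3.01% and 3.38% of all genes. With the replicate block it was 0 higher and 3 lower (6.98%), against 5.14% and 6.6% of all genes. The median fold change of the members stayed between -0.092 and -0.049 and the number above 0 between 12 and 18. The number of genes called among all tested was 2, and it was 4 with a pseudocount of 0.1, 4 without a filter, 0 with GC trends removed, 1 with the replicate block, 1 with the block and GC removal, and 76 without flow libraries 1 and 2, where the lone flow library is assumed to vary like the controls. It was 3 to 14 when 1 library was left out. The number of members whose groups did not overlap was 7, and it was 4 with quantile normalization, 3 with GC trends removed, 3 with the block and GC removal, 19 without flow libraries 1 and 2, where fewer libraries make separation easier, and 9 to 24 with 1 library left out (24 without flow 3, 14 without control 1, 11 without control 3). The cause of the other moves was not tested.

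The labels do not say which libraries share a day, so the replicate block took adjacent title numbers as pairs. Deviations of these pairs correlated across genes at 0.043, 0.0227 and 0.0644 (Pearson) and 0.241, 0.299 and 0.278 (Spearman), where the other pairs had Spearman values of -0.217 to -0.0836. By Spearman every library correlated best with its adjacent one, and by Pearson every library but control 2. The measures differ, so the check does not settle whether adjacent titles share a day. With the block limma called 0 members (smallest adjusted p 0.423). Unadjusted p-values under 0.05 from limma were then 0.00382 for Ccnd3 (fold change -0.47, standard error 0.0808), 0.0241 for Mcm7 and 0.0245 for E2f1.

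Some fold changes changed sign, including ones of 0.25 to 0.38 in size in the fit reported (Ccng1, E2f4, Prim1, Rfc4, Orc5, Orc1 and Ccne1). With GC trends removed, alone or with the replicate block, this held for Ccne2 (-0.21), Cdt1 (0.068), Pold1 (0.10), Pole (0.0050) and Lig1 (0.099). In the other deposited table it held for Ccne2 (-0.019), E2f2 (-0.41), Rfc2 (0.012), Rpa2 (-0.44), Lig1 (0.037), Tyms (0.15) and Orc5 (-0.070). With flow library 3 as the only flow library it held for Ccnd2 (0.16), Ccne1 (0.012), Cdk2 (0.065), E2f2 (-0.13), Orc1 (-0.19), Cdt1 (0.051), Mcm2 (0.0031), Pcna (-0.10), Rfc2 (0.0005), Rfc4 (-0.16), Rfc5 (-0.052), Pola1 (-0.053), Prim1 (-0.045), Rpa1 (0.026), Fen1 (0.039), Uhrf1 (0.018), Rrm1 (-0.076), Tyms (0.010), E2f4 (0.0062) and Ccng1 (-0.0016). When 1 library was left out, the fold change spanned 0 for Ccnd2 (-0.20 to 0.021), Ccne2 (-0.032 to 0.25), E2f2 (-0.18 to 0.13), Orc1 (-0.20 to 0.67), Cdc6 (-0.13 to 0.011), Mcm6 (-0.082 to 0.060), Gins1 (-0.16 to 0.021), Pole (-0.25 to 0.13), Rpa2 (-0.082 to 0.067), Lig1 (-0.034 to 0.018), Rrm2 (-0.031 to 0.23) and Tyms (-0.10 to 0.0002). The cause was not tested. Flow library 2 had the fewest reads, 5750000.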

Other observations

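Mitosis genes and inhibitors of cyclin-dependent kinases lie downstream and upstream of S phase. Of 20 mitosis genes, 14 fold changes were above 0, against 48.3% of all genes tested, with a median of 0.130 against -0.011. At an unadjusted p under 0.05, 0 were higher and 0 lower, against 3.7% and 4.82% of all genes, and limma called 0. Bub1, a kinase of the spindle checkpoint, was at 22.96, 22.6 and 27.6 FPKM in controls and 33.8, 31.5 and 26.1 FPKM in flow (fold change 0.31 in log2 units). Top2a, the topoisomerase of G2 and mitosis, was at 193, 165 and 146 FPKM in controls and 215, 223 and 169.8 FPKM in flow (fold change 0.27), and Ccnb1, the mitotic cyclin, was at 31.4, 21.4 and 25.03 FPKM in controls and 38.03, 33.1 and 26.5 FPKM in flow (fold change 0.32). In these 3 genes flow library 3 lay within the control range. With the GC trend removed the list's median was 0.064, without control 2 it was 0.039, without flow library 1 it was 0.028, without control 1 it was 0.207, and with flow library 3 as the only flow library it was 0.010.

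Of 12 cyclin-dependent kinase inhibitors and p53 targets, 9 were tested. Of these, 3 were above 0, against 48.3% of all genes, and the median was -0.049. The median was 0.112 without control 3 and 0.052 without flow library 1, each with 5 above 0, and it was -0.210 without control 1 and -0.211 in the other deposited table. Cdkn2a and Cdkn2b, which inhibit D cyclin kinases, were listed at 0 in all 6 libraries, and Cdkn1c reached 0.031 FPKM in 1 control. Cdkn2d, another inhibitor of the D cyclin kinases, was at 15.2, 8.83 and 11.99 FPKM in controls and 7.88, 8.12 and 7.28 FPKM in flow, with every flow value below every control (log2 fold change -0.54, standard error 0.19, unadjusted p = 0.0292, limma adjusted p = 0.559). With the GC trend removed the fold change of Cdkn2d was -0.38. Cdkn1a, the p53-induced inhibitor p21, was at 54.4, 70.0 and 82.6 FPKM in controls and 50.7, 55.5 and 58.6 FPKM in flow (fold change -0.31). Ccng1, a p53 target, was at 22.7, 21.4 and 21.8 FPKM in controls and 32.5, 33.5 and 21.9 FPKM in flow, with flow libraries 1 and 2 above every control and flow library 3 within their range (fold change 0.38).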
